A study of Mus musculus with 13 samples.

Results

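The 37 genes described here are markers of macrophages, the phagocytes that live in almost every tissue, and they were measured in primary and immortalized cultures of mouse embryonic fibroblasts (MEFs). They were taken by gene symbol and looked up in both tables of raw read counts, where all 37 were found among 55487 genes. They fall into 5 groups by what the proteins do: 8 membrane proteins of leukocytes with the beta2 integrin chains, 8 general macrophage and lysosome genes, 11 resident and scavenger genes, 6 inflammatory and activation genes, and 4 MHC class II genes. The question put to them was whether the groups fall together, by one factor, in each immortalized line.

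Poly-A RNA was sequenced from 13 libraries. There were 3 primary wild-type (WT) cultures (clones 3, 4 and 5) and the 3 immortalized lines with the same clone numbers. There were also 3 primary Prkd3-/- cultures (clones 13, 14 and 15) and 4 immortalized Prkd3-/- lines (13, 13a, 14 and 15), where Prkd3 encodes a kinase of the protein kinase D family. All cultures were grown with 10% fetal calf serum (FCS), and the lines came from serially passaged cultures that became senescent, were moved to 20% FCS, formed growing colonies and were returned to 10% FCS. Each line therefore stands for the colonies of 1 culture. Lines 13 and 13a carry one clone number, and how they were separated is not given in the sources used here, nor are the embryos' age and the deleted exons of Prkd3.

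Macrophages enter embryonic tissue early, first from the yolk sac and later from the fetal liver, and can renew themselves there. A MEF culture is made by dissociating most of an embryo and keeping what adheres, and macrophages adhere well. A macrophage is recognised by genes that all leukocytes share, such as Ptprc (CD45), by genes of the phagocytic lysosome, and by scavenger receptors that mark cells settled in a tissue. Signals such as bacterial lipopolysaccharide or interferon add activation markers and MHC class II molecules, which present peptides to T cells.

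For 26 of the 37 genes the RefSeq promoter table (build GRCm38.p6) held a window. The 5 stretches printed here belong to the most abundant member of the first 3 groups (Laptm5, Lyz2 and Folr2), to the member with the most negative Log2FC in WT (Mrc1) and to a member that is not restricted to leukocytes (Icam1). Mrc1 and Icam1 were chosen after their values were seen. Each stretch begins 250 bases before the RefSeq start and stops before the first annotated exon. Capitals mark 3 short motifs on either strand: GAGGAA, the core read by the myeloid factor PU.1, ATTGG, the reverse of the CCAAT box, and TATAA.
Laptm5: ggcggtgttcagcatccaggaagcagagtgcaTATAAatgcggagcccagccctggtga
Lyz2: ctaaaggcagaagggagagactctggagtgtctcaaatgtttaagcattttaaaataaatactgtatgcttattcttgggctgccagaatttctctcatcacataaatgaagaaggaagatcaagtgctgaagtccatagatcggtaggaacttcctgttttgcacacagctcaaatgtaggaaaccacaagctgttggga
Folr2: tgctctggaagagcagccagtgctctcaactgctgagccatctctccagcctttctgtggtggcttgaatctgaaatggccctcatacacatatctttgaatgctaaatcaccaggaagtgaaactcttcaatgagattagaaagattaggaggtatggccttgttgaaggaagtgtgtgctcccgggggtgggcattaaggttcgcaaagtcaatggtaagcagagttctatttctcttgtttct
Mrc1: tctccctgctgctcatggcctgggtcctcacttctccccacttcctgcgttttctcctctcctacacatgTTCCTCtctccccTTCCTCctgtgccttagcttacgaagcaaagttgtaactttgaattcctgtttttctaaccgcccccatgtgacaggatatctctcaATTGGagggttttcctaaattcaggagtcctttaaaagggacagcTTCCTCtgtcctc
Icam1: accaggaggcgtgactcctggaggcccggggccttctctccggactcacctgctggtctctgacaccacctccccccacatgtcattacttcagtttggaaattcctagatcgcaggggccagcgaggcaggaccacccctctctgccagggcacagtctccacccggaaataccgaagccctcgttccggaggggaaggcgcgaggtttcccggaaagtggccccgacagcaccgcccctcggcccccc
The Laptm5 stretch is chr4:130913066-130913124, the Mrc1 stretch chr2:14229164-14229391 and the Icam1 stretch chr9:21015690-21015939, all on the plus strand. The Lyz2 stretch is chr10:117282322-117282522 and the Folr2 stretch chr7:101857195-101857440, both on the minus strand. The Mrc1 stretch held GAGGAA 3 times and ATTGG 1 time, while those of Lyz2, Folr2 and Icam1 held none of the 3 motifs. Over whole windows of 250 bases, GAGGAA was present in 12 of 26 members (46.2%) and in 23.1% of 27025 genes. ATTGG was present in 12 of 26 members and in 34.5% of all genes, and TATAA in 5 of 26 members (19.2%) and in 23.5% of all genes. These are matches of letters and show no binding. For members the window nearest the gene's Ensembl start was taken, and for all genes the first listed window, so the shares rest on unlike choices.

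Total counts ranged from 35273408 to 100441756 per library. The 3 WT primary libraries lay close together, with a biological coefficient of variation of 4.04 to 6.53% between pairs, against 42.2 to 50.5% between WT lines, 14.6 to 39.9% between Prkd3-/- primary libraries and 44.4 to 72.8% between Prkd3-/- lines. Each of the 3 WT primary libraries, and 2 of 3 WT lines, held both Xist and Y-linked transcripts at 1 CPM (counts scaled to the size of the library) or more, as did 0 of 7 Prkd3-/- libraries. Prkd3 was counted at 69.2 to 73.7 CPM in WT primary and at 33.6 to 43.2 CPM in Prkd3-/- primary libraries. In the lines it was at 73.6 to 93.8 CPM in WT and at 43.8 to 61.0 CPM in Prkd3-/-. These counts are over the whole gene, which does not check a deletion of some exons. The 10 fibroblast markers summed to 30907 CPM or more in each library, a sum that abundant genes carry and that does not show each marker. In line 13, Fn1 was at 12350 CPM and Col1a1 at 7789 CPM, while Thy1 was at 4.85 CPM and Dcn at 0.382 CPM. Over the 13 libraries, 5 T cell markers summed to 0.0508 to 1.60 CPM, with 3 of them (Cd3e, Cd3g and Cd2) at 0 throughout. Likewise 5 B cell markers summed to 0.0573 to 3.47 CPM, 5 dendritic cell markers to 2.55 to 12.1 CPM and 5 neutrophil markers to at most 0.219 CPM. Line 13a is assigned to clone 13 by its label alone, and across genes its deviations from the group mean ran with those of primary clone 14 and against those of primary clone 13.

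In primary MEFs the order of levels began with lysosome genes. On the length-corrected FPKM scale, the mean over the 6 primary libraries of both genotypes was highest for Lyz2, the lysozyme of myeloid cells, at 439 FPKM, followed by Lgmn at 74.9 FPKM and Cd68 at 43.2 FPKM. Ctss, a lysosomal cathepsin, was at 39.7 FPKM and Mpeg1, which encodes the pore-forming perforin-2, at 32.6 FPKM. The leukocyte membrane genes came lower, with Laptm5 at 25.3 FPKM and Ptprc at 1.17 FPKM. The order of neighbours is a description, since the primary Prkd3-/- libraries differed among themselves by more than many of these gaps, as given further on.

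Only some of the resident genes were expressed. Mrc1 (the mannose receptor CD206), Folr2 (folate receptor beta) and Msr1 (scavenger receptor A) were present, while Cd163, a haemoglobin scavenger receptor, had at most 9 counts in any library and Vsig4, a complement receptor, at most 9. Lyve1, a hyaluronan receptor, reached at most 0.259 CPM, where the floor of 3 counts was 0.0277 to 0.0842 CPM by library. Timd4, another resident marker outside the 37, reached at most 0.178 CPM. Csf1r, the receptor for the growth factor that macrophages need, was at 209.5 to 212 CPM in WT primary libraries.

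**Figure D1:**
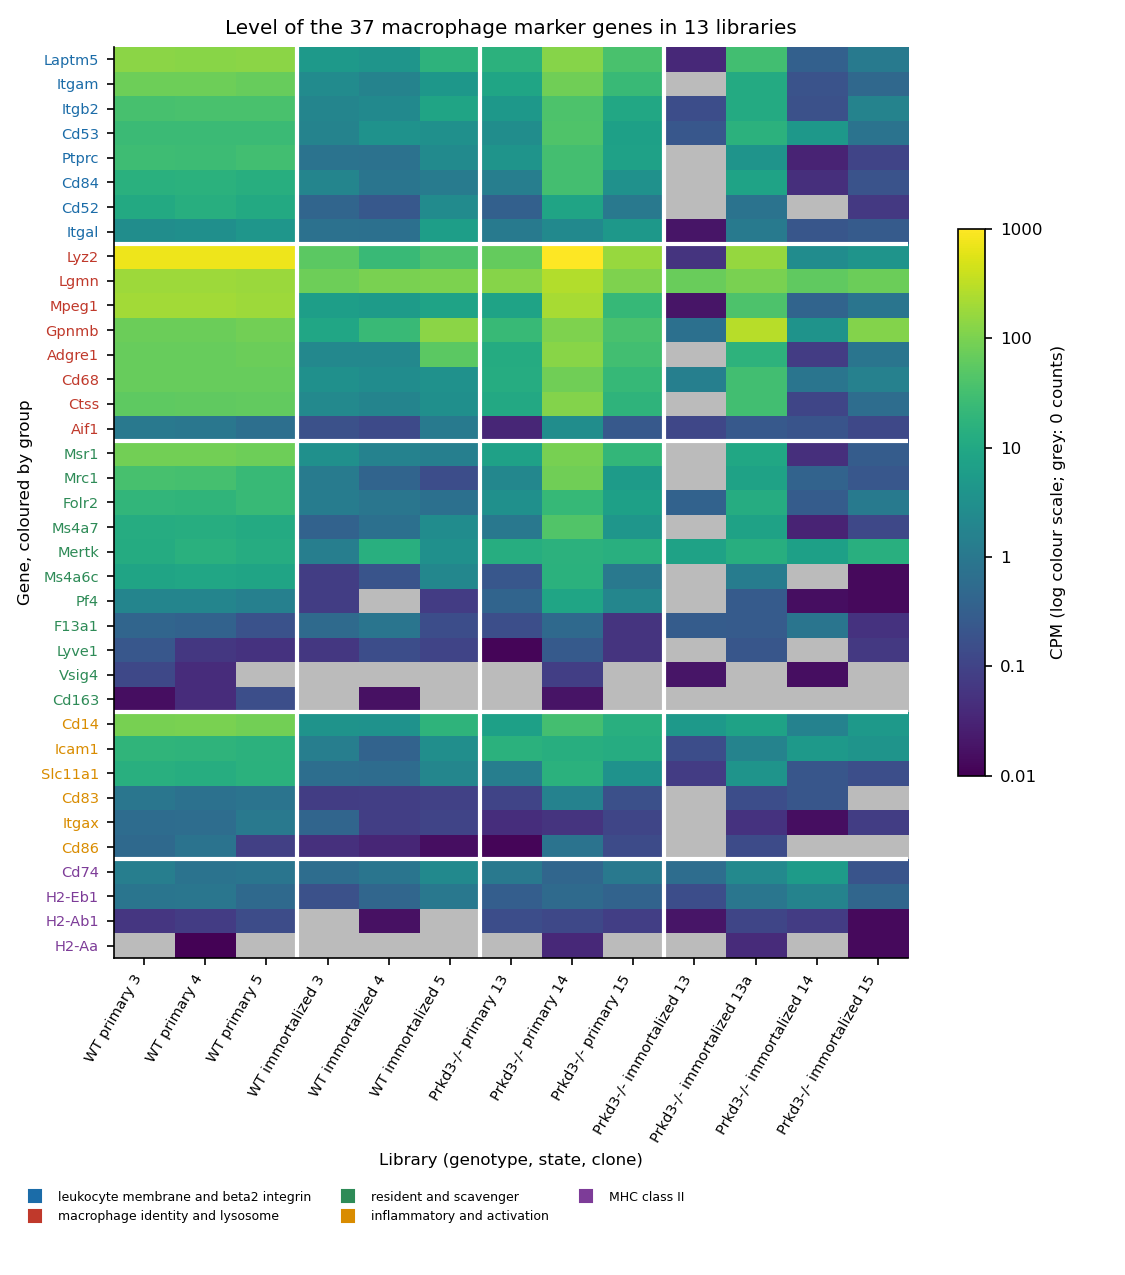
Level of each of the 37 genes (rows, coloured by group) in each of the 13 libraries (columns) as CPM on a log colour scale, with grey for 0 counts. The 3 WT primary libraries look alike, and Prkd3-/- line 13 has 17 genes at 0 counts.

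In WT MEFs, most macrophage genes were lower in all 3 immortalized lines than in any primary library. Of 37 genes, 31 passed the filter on low counts, and 10 were called lower in immortalized cells by edgeR's quasi-likelihood test (adjusted p under 0.01, Log2FC of -1 or less), beside 1.76% of all 19836 genes tested. None was called higher (0 of 31, beside 0.0605% of all genes). At an adjusted p under 0.05, 18 of 31 were lower, beside 4.57%. DESeq2 called 22 of 36 lower, beside 3.69%, and 0 higher, beside 0.363%. In 24 of 31, every line lay below every primary library, which held for 17.3% of all genes tested.

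The median Log2FC over the 31 members was -3.44, beside 0.04 over all genes tested. In bulk RNA, fewer macrophages in a culture and less macrophage RNA per cell cannot be told apart. With the embryo as a replicate block (the study traces WT libraries of one number to one embryo), 0 members were called, as were 0 of all genes, while 11 members and 1.05% of all genes were lower at an adjusted p under 0.05. Without line 5, 22 of 32 members were called, beside 3.48% of all genes. Without primary clones 3, 4 or 5 the count was 3, 3 or 4, for which the share of all genes was not taken.

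The leukocyte membrane genes were led by Laptm5 (ENSMUSG00000028581, chr4:130913125-130936141, plus strand), a lysosomal membrane protein of blood cells that turns down receptor signalling. Laptm5 was at 134, 129.7 and 137 CPM in WT primary clones 3, 4 and 5 and at 5.03, 4.13 and 17.2 CPM in the matching lines. Every line lay far below every primary library, with line 5 the highest of the lines. The Log2FC was -3.93 ± 0.62 (SE, edgeR), and the adjusted p of 0.024 did not reach the call. Cd53, a tetraspanin found on leukocytes, was at 25.7, 25.9 and 25.5 CPM in primary cells and at 1.71, 3.50 and 3.21 CPM in the lines. It was called lower, with a Log2FC of -3.19 ± 0.29 and an adjusted p of 0.0043. Itgam, the alpha M chain that pairs with beta2 to form Mac-1, a complement receptor, was at 78.2, 77.7 and 68.8 CPM and then at 2.55, 1.73 and 4.36 CPM. It was called lower, 26.0-fold (adjusted p 0.0029), but 68.7% of the exon bases of Itgam overlap Gm49368, and a pair in the overlap counted for both.

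The other integrin chains did not follow Itgam evenly. Itgb2, the beta2 chain, was at 36.2 ± 0.943 CPM (mean ± SD, n = 3) in primary cells and at 1.92, 2.32 and 8.15 CPM in the lines, with a Log2FC of -3.13 (adjusted p 0.047, edgeR). Itgal, the alpha L chain of LFA-1, was at 2.87, 3.09 and 4.20 CPM in primary cells and at 0.725, 0.694 and 6.41 CPM in the lines, so that line 5 lay above all 3 primary libraries and lines 3 and 4 below them. Its Log2FC was -0.37 ± 0.92 with an adjusted p of 0.86.

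Among the rest of this group, Cd84, a receptor of the SLAM family, was called lower (Log2FC -3.47, adjusted p 0.0041). Ptprc was at 28.2 ± 1.75 CPM in primary cells and at 0.790, 0.779 and 2.45 CPM in the lines, with a Log2FC of -4.39 and an adjusted p of 0.01 that missed the call. Cd52, a small lipid-anchored surface peptide, had a Log2FC of -3.46 with an adjusted p of 0.11, and 14.5% of its exon bases overlap Crybg2. In all, 3 of 8 members were called, beside 1.76% of all genes, and 7 of 8 had every line below every primary library, beside 17.3%. Among 7 further partners of these integrins, 1 of 6 tested was called lower, beside the same 1.76%: Fermt3, the kindlin of blood cells, with a Log2FC of -3.87.

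The macrophage and lysosome genes held both the smallest p-values and members with small changes. Lyz2 (ENSMUSG00000069516, chr10:117277331-117282321, minus strand) was at 741, 734 and 732 CPM in WT primary cells and at 55.2, 24.2 and 40.1 CPM in lines 3, 4 and 5. It was called lower, 18.5-fold, with a Log2FC of -4.21 ± 0.33 and an adjusted p of 0.0028 (edgeR). Cd68 (chr11:69664213-69666153, minus strand), the lysosomal glycoprotein macrosialin, was at 69.4, 68.5 and 69.1 CPM and then at 3.17, 2.71 and 3.46 CPM. The 3 lines lay within a narrow range, and Cd68 was called lower with a Log2FC of -4.47 ± 0.13 and an adjusted p of 2.5e-04. Mpeg1 was 30.2-fold lower (adjusted p 3.0e-04) and Ctss 25.2-fold lower (adjusted p 6.2e-04). Cd68, Mpeg1 and Ctss were called in each of the 6 fits that left out 1 library.

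Lgmn, the lysosomal protease legumain, which many cell types make, stayed closer to its primary level. It was at 183, 185 and 181 CPM in primary cells and at 78.8, 97.3 and 102 CPM in the lines, so that every line was lower, with a Log2FC of -0.98 ± 0.12 (adjusted p 0.01). Gpnmb, a glycoprotein of late lysosomes, was at 79.1 ± 4.56 CPM in primary cells and at 9.09, 24.7 and 137 CPM in lines 3, 4 and 5. Line 5 lay above the primary libraries and lines 3 and 4 below, and the adjusted p was 0.83. Adgre1, which encodes the macrophage antigen F4/80, was at 71.0 ± 2.57 CPM in primary cells, at 2.16 and 2.15 CPM in lines 3 and 4, and at 55.2 CPM in line 5. With line 5 so close to the primary libraries, its adjusted p was 0.50. Aif1 (IBA1) was low, at 0.896 ± 0.189 CPM in primary cells and 0.476 ± 0.555 CPM in the lines (adjusted p 0.60). In this group 4 of 8 were called lower, beside 1.76% of all genes.

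Among the resident and scavenger genes, 2 of 8 tested were called lower, Folr2 and Msr1, beside 1.76% of all genes. Folr2 (chr7:101839988-101857194, minus strand) was at 20.0, 18.7 and 23.4 CPM in primary cells and at 1.24, 0.914 and 0.688 CPM in the lines. It was 21.8-fold lower with an adjusted p of 9.5e-04, and 63.1% of its exon bases overlap Gm10602. Msr1 was at 86.9, 87.0 and 79.2 CPM and then at 3.30, 1.63 and 1.42 CPM, a Log2FC of -5.32 ± 0.38 with an adjusted p of 0.0022. Mrc1 (chr2:14229392-14332057, plus strand) had the most negative Log2FC of the 31, -5.72 ± 0.77. Its values were 34.9, 33.2 and 23.5 CPM in primary cells and 1.18, 0.406 and 0.153 CPM in the lines. The lines did not overlap the primary libraries, but their own spread left Mrc1 at an adjusted p of 0.015.

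Pf4, a chemokine of platelets that macrophages also make, was at 1.78 ± 0.224 CPM in primary cells and at 0.0806, 0 and 0.0765 CPM in the lines (adjusted p 0.02). Ms4a7 and Ms4a6c, membrane proteins of the MS4A family, had Log2FC of -3.29 and -3.42 with adjusted p of 0.072 and 0.18. Line 5 held 2.65 and 2.10 CPM of them, more than lines 3 and 4, and 53.1% of the exon bases of Ms4a6c overlap BE692007. Mertk, a receptor for dying cells, was at 12.0, 14.6 and 12.7 CPM in primary cells and at 1.35, 14.1 and 3.18 CPM in the lines, so that the groups overlapped (adjusted p 0.53). F13a1, a transglutaminase subunit, had the least negative Log2FC, 0.66, with values of 0.429, 0.381 and 0.179 CPM and then 0.532, 0.897 and 0.153 CPM (adjusted p 0.65). Lyve1, Cd163 and Vsig4 did not pass the filter.

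The inflammatory genes that were tested lay lower in each WT line than in any primary library, which held for 17.3% of all genes. Of these, 1 of 5 tested was called, beside 1.76% of all genes. Cd14, the co-receptor for lipopolysaccharide, was at 92.6, 96.7 and 86.5 CPM in primary cells and at 3.67, 3.47 and 18.2 CPM in the lines. Line 5 was again the highest of the lines, and the Log2FC of -3.44 ± 0.74 had an adjusted p of 0.062 (edgeR). Slc11a1, the phagosomal metal transporter Nramp1, was at 14.1, 13.2 and 15.4 CPM and then at 0.628, 0.593 and 1.97 CPM, with an adjusted p of 0.018. Icam1 (chr9:21015985-21028817, plus strand), the ligand of LFA-1 and Mac-1 that fibroblasts and endothelium also carry, was at 18.9, 18.2 and 16.5 CPM and then at 1.39, 0.389 and 2.92 CPM. The groups did not overlap, the Log2FC was -3.51 ± 0.70 with an adjusted p of 0.05, and 11.7% of its exon bases overlap Gm47079. Cd83, an activation marker, was the member called, from 0.828 ± 0.0900 CPM to 0.0857 ± 0.00567 CPM (adjusted p 0.0029). Itgax (CD11c) had an adjusted p of 0.20, and Cd86, a co-stimulatory ligand, was below the filter at 0.471 ± 0.365 CPM in primary cells.

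MHC class II genes were low before immortalization. Cd74, the invariant chain that holds class II molecules until they are loaded, was at 1.35, 0.806 and 0.894 CPM in WT primary cells and at 0.612, 0.897 and 2.32 CPM in lines 3, 4 and 5. The groups overlapped, and the Log2FC was 0.33 ± 0.55 (adjusted p 0.79). H2-Eb1, a class II beta chain, was at 0.890, 0.904 and 0.501 CPM and then at 0.177, 0.440 and 0.994 CPM (adjusted p 0.71). H2-Ab1 had 4, 7 and 8 counts in the primary libraries and 0, 1 and 0 in the lines. Every line lay below every primary library, on few counts that did not pass edgeR's filter. DESeq2 called 0 of 4 class II genes in WT (beside 3.69% of all genes lower), with 1 at an unadjusted p under 0.05. H2-Aa had 0, 1 and 0 counts and then 0 in each line, too few for a comparison. The 9 genes of the class II loading and control machinery summed to 58.6 to 61.4 CPM in primary cells and 57.9 to 61.6 CPM in the lines. By edgeR, 0 of 6 tested were called, with 0 at an unadjusted p under 0.05 (beside 19.7% of all genes). By DESeq2, 0 of 9 were called, with 2 at an unadjusted p under 0.05 (beside 4866 of 33349 genes). H2-DMb2, H2-Oa and H2-Ob reached at most 0.125 CPM in WT, too low for the sum to show a change in them.

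Other macrophage genes outside the 37 moved in the same comparison. Of 15, 13 were tested and 11 were called lower in the WT lines, beside 1.76% of all genes, with a median Log2FC of -4.31. The 15 summed to 772 to 799.9 CPM in primary cells and 34.4 to 61.7 CPM in the lines. The 5 endothelial markers summed to 11.6 to 16.4 CPM in WT primary cells and 0.371 to 1.97 CPM in the lines. EdgeR called 1 of 4 tested, Tek, lower (beside 1.76% of all genes), and DESeq2 called 3 of 5 lower (beside 3.69%). The part of the endothelial markers in the lower Icam1 values was not tested. Of 10 fibroblast markers, edgeR called 0 in WT, with 0 at an unadjusted p under 0.05, beside the same 19.7% of all genes. Their Log2FC was negative in 4 of 10. DESeq2 gave a p-value for 8 of the 10 and called 0 of them, beside 3.69% of all genes lower and 0.363% higher. Single markers still spread widely between lines. Lum was at 165 to 192 CPM in WT primary cells and at 0.0483, 93.5 and 11.4 CPM in lines 3, 4 and 5. Pdgfra was at 148 to 157 CPM and then at 27.5, 44.1 and 484 CPM.

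**Figure D2:**
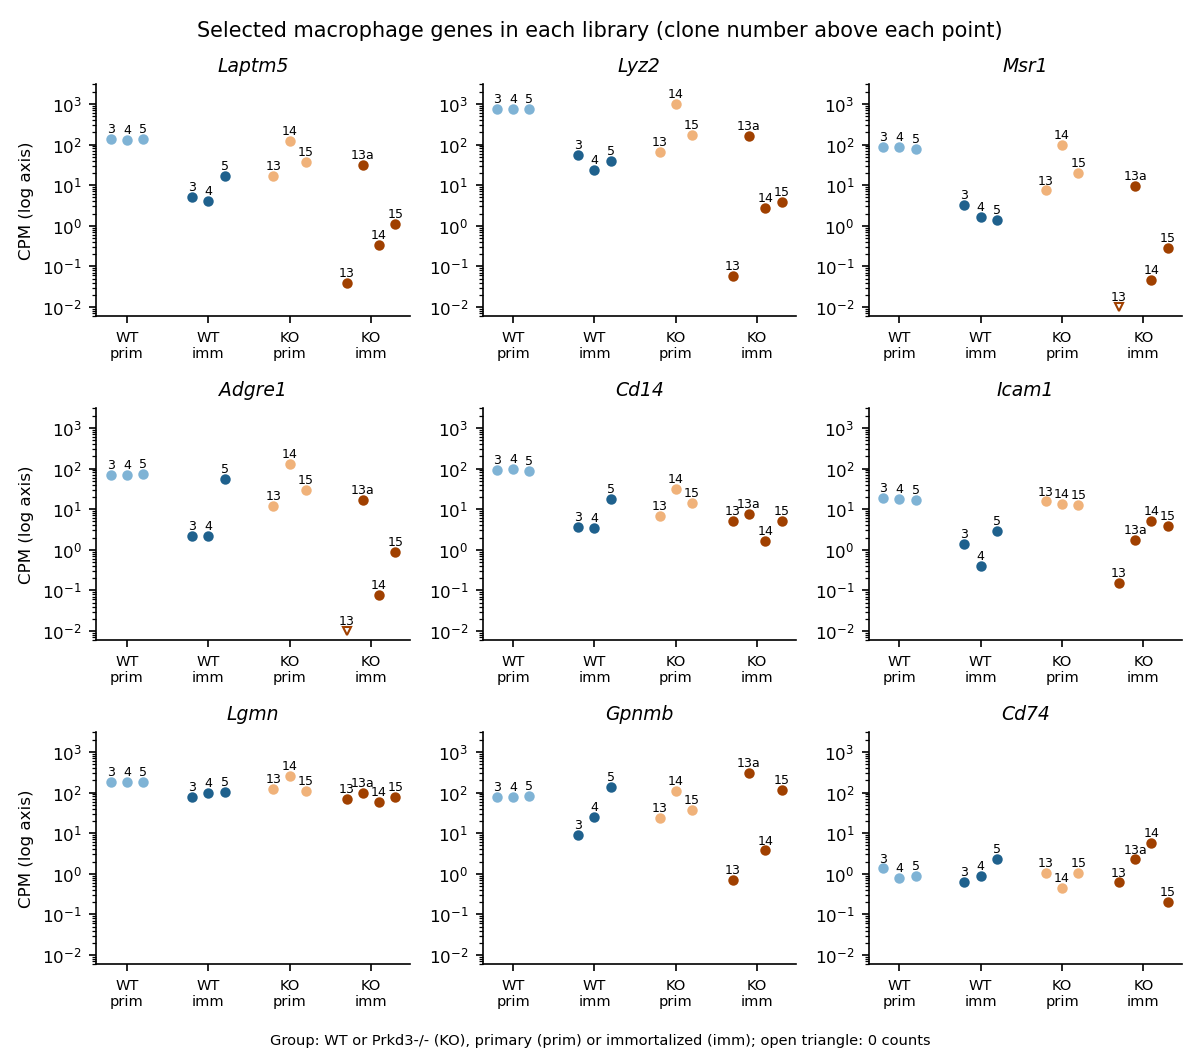
CPM on a log axis of 9 members in each library, by group, with the clone number above each point and open triangles for 0 counts. Laptm5, Lyz2 and Msr1 are lower in all 3 WT lines, Adgre1 and Gpnmb are high in WT line 5, and Cd74 is low throughout. Lgmn, at 59.7 to 262 CPM, is lower in every line than in any primary library of its genotype, in WT by less than Laptm5, Lyz2 and Msr1.

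Within a WT line, many members lay further from the line's median than counting error. Whether members fell by one factor was not tested beyond that error. For the 26 members with a mean of at least 1 CPM in primary cells of a genotype, the level left in each line was taken as a percent of the arithmetic mean of the 3 primary libraries, with an exact 95% Poisson interval on the line's count. These intervals cover counting error only, and the error of the primary mean is left out. In WT line 3 the median level left was 4.47%, and 9 of 26 intervals included it, 10 lay above it and 7 below. In WT line 4 the median was 3.53% and 8 of 26 intervals included it. In WT line 5 the median was 13.4% and 3 of 26 intervals included it, with 12 above and 11 below.

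Line 5 therefore split the genes. Itgal, Gpnmb and Cd74 were at 189%, 174% and 229% of primary and Adgre1 at 77.8%. Cd14, Ms4a7 and Ms4a6c were at 19.9%, 21.7% and 24.5%. Lyz2, Cd68 and Folr2 were at 5.45%, 5.01% and 3.33%, Msr1 at 1.69% and Mrc1 at 0.501%. Line 5 was the highest of the 3 WT lines for 17 of the 25 members with at least 1 CPM over the 6 primary libraries, yet the lowest for Mrc1, Folr2 and Msr1. Marco, a scavenger receptor outside the 37, was at 10.8 CPM in line 5 and at 0 in every other WT library, and was singled out after its values were seen.

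By group, the medians lay near each other in WT lines 3 and 4. In line 3 the median level left was 4.53% for leukocyte membrane genes, 4.60% for macrophage and lysosome genes, 3.92% for resident and scavenger genes and 4.41% for inflammatory genes. In line 4 these were 4.52%, 3.29%, 2.37% and 3.78%. In line 5 they parted, with 12.7%, 5.45%, 4.30% and 16.3%. Cd74, the 1 class II gene of at least 1 CPM, was at 60.2%, 88.3% and 229% in lines 3, 4 and 5. Single genes spread more widely than the group medians, and the resident genes alone ranged from 0.941% for Ms4a6c to 10.3% for Mertk in line 3.

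**Figure D3:**
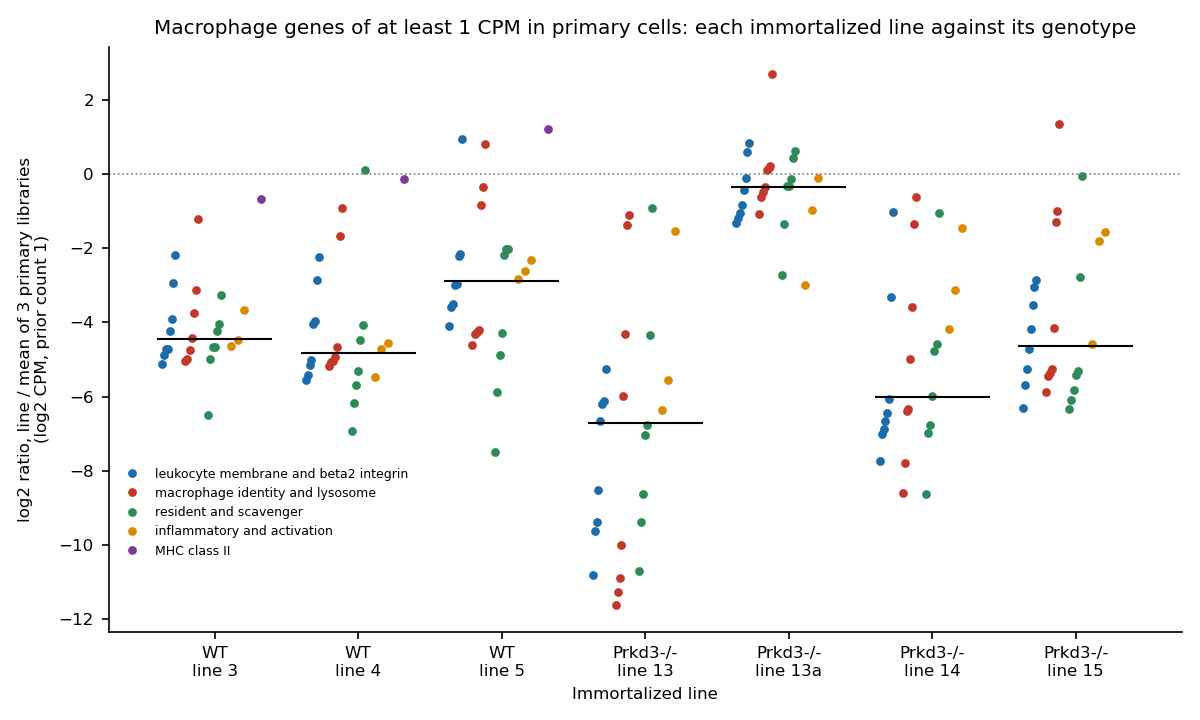
Log2 ratio of each immortalized line to the mean log2 CPM of the 3 primary libraries of its genotype, for members of at least 1 CPM in primary cells, coloured by group, with a black bar at the line's median. The medians are -4.45, -4.82 and -2.90 in WT lines 3, 4 and 5 and -6.72, -0.34, -6.02 and -4.65 in Prkd3-/- lines 13, 13a, 14 and 15.

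In Prkd3-/- MEFs the lines spread further apart. Over all 37 members the median log2 ratio to primary cells was -5.54 in line 13, -0.23 in line 13a, -3.60 in line 14 and -3.35 in line 15, beside -3.74, -4.05 and -2.60 in WT lines 3, 4 and 5. Of 31 members tested, 0 were called in the Prkd3-/- comparison by edgeR (0% of all 20298 genes), and 5 had an unadjusted p under 0.05 (Cd14, Icam1, Itgal, Lgmn and Pf4), beside 6.56% of all genes. DESeq2 called 1 lower, Pf4, beside 0.479% of all genes, and 0 higher, beside 0.0784%. The median Log2FC over the 31 was -2.65, and 27 were negative. Without line 13a, 0 of 30 were called and the median was -5.23.

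In 5 of 31 (Ptprc, Itgal, Lgmn, Pf4 and Icam1) every line lay below every primary library, which held for 5.26% of all genes tested. In 0 of 31 every line lay above, beside 4.19%. Pf4 had the most negative Log2FC, -5.53 ± 1.56 (adjusted p 0.60, edgeR), with 0.403, 8.64 and 1.94 CPM in primary clones 13, 14 and 15 and 0, 0.274, 0.0156 and 0.0135 CPM in lines 13, 13a, 14 and 15. Cd74 had the least negative, 1.36 ± 1.05 (adjusted p 0.85), with 1.06, 0.453 and 1.04 CPM and then 0.611, 2.25, 5.66 and 0.202 CPM. Cd74 and H2-Eb1 (0.153, 0.905, 1.69 and 0.445 CPM in the lines) were both highest of all 13 libraries in line 14.

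The primary Prkd3-/- libraries were themselves unequal. Lyz2 was at 67.1, 1020.1 and 168 CPM in clones 13, 14 and 15, Laptm5 at 16.5, 122 and 36.3 CPM, and Mpeg1 at 8.09, 223 and 22.1 CPM. Over the 25 members of at least 1 CPM, clone 14 exceeded the mean log2 CPM of clones 13 and 15 by a median of 2.80, which is 6.95-fold, and was above it in 24 of 25. The median over all 15845 genes of that level was 0.01. Clone 15 exceeded clone 13 by a median of 1.30 and was higher in 23 of 25. Against the mean of the WT primary libraries, the median difference in log2 CPM was 0.28 for clone 14 and -2.42 for clones 13 and 15.

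Some members did not follow clone 14. Icam1 was at 15.4, 13.5 and 12.4 CPM in clones 13, 14 and 15, Mertk at 13.3, 16.5 and 14.5 CPM and Itgal at 1.18, 2.33 and 4.60 CPM. Lgmn followed weakly, at 124, 262 and 110.1 CPM. The largest differences were in Ms4a6c (0.231, 15.5 and 1.04 CPM), Mrc1 (2.02, 81.0 and 5.50 CPM) and Ms4a7 (1.00, 44.0 and 4.32 CPM). Other macrophage genes outside the 37 summed to 81.9 to 1058 CPM in these 3 libraries, and endothelial markers to 15.2 to 29.0 CPM.

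With all 6 primary libraries compared by genotype, 0 of 32 members were called in edgeR, beside 0.534% of all genes lower and 0.23% higher in Prkd3-/-, and 4 had an unadjusted p under 0.05, beside 24.1% of all genes. Without clone 14, 14 of 32 were called lower, beside 5.55% of all genes, among them Ptprc, Cd68, Ctss, Mpeg1, Cd14 and Slc11a1. Clone 14 was singled out after values were seen, because most of these same members were high in it. Leaving it out lowers the Prkd3-/- mean of such members by construction, so this count cannot decide whether the genotypes differ. DESeq2 on all 6 libraries called 2 lower, Cd14 and Itgax, beside 1.71% of all genes, and 0 higher, beside 0.772%. Cd14 was at 91.9 ± 5.12 CPM in WT and at 6.96, 32.0 and 14.3 CPM in Prkd3-/- primary cells. Even clone 14 lay below every WT library for Cd14, with a Log2FC of -2.34 ± 0.53 and an adjusted p of 0.059 in edgeR. Itgax had a Log2FC of -3.50 ± 0.45 with an adjusted p of 0.014. The genotypes were counted in separate tables, so that table and genotype cannot be told apart. Fibroblast markers differed in the same comparison, with 8 of 10 negative in Prkd3-/-. Pdgfrb, a receptor for platelet-derived growth factor, was called lower (Log2FC -1.16, adjusted p 0.004, edgeR), while the matrix genes Dcn and Lum had Log2FC of -3.07 and -2.84 with adjusted p of 0.06 and 0.064. DESeq2 called 5 of 10 lower, and edgeR without clone 14 called 2. Pdpn, the membrane glycoprotein podoplanin, was called higher (Log2FC 2.46, adjusted p 0.0018). Whether these bear on the macrophage genes was not tested.

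**Figure D4:**
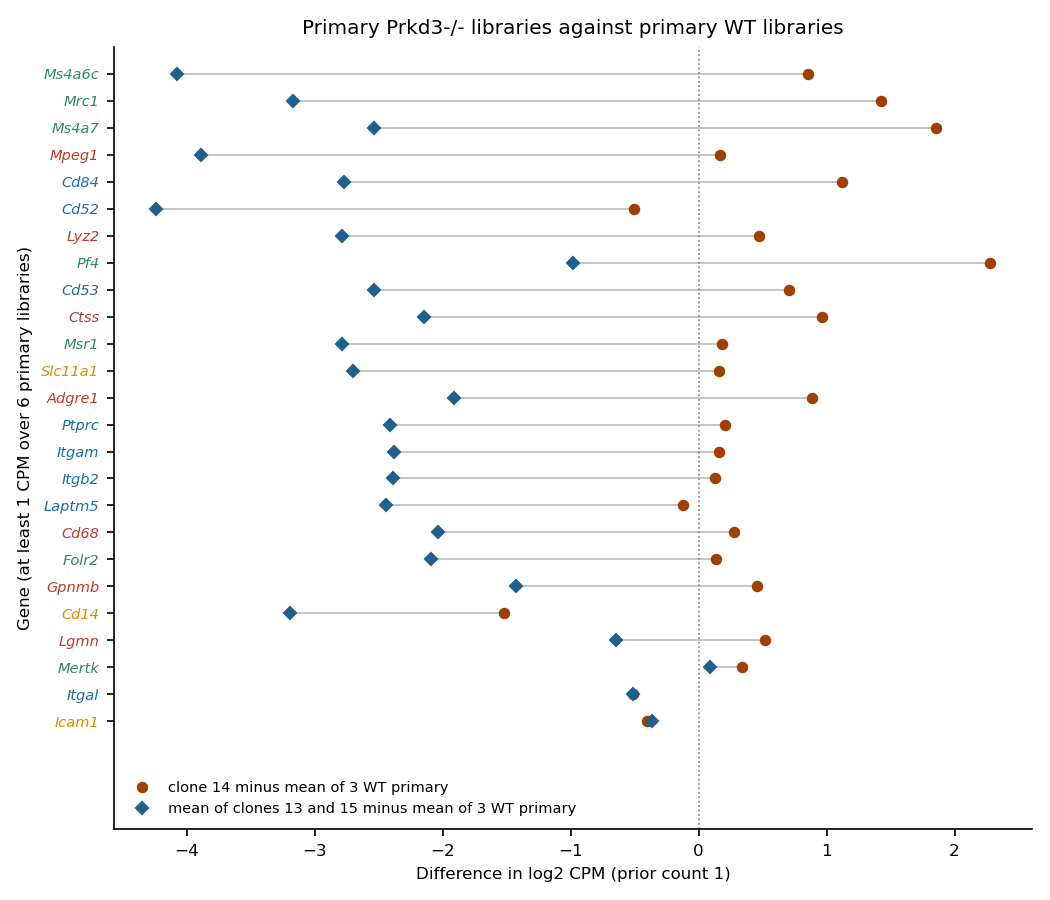
Difference in log2 CPM from the mean of the 3 WT primary libraries for primary Prkd3-/- clone 14 and for the mean of clones 13 and 15, for 25 members of at least 1 CPM (names coloured by group). Clone 14 lies above 0 for 20 of 25 genes, and the mean of clones 13 and 15 for 1, Mertk.

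Line 13 had 0 counts for 17 of 37 members, the most of the 7 lines. The 37 summed to 88.5 CPM in line 13 and 96.6 CPM in line 14. The 15 other macrophage genes summed to 16.6 CPM in line 13, above 10.2 CPM in line 14 and 14.9 CPM in line 15, and Csf1r made up 16.3 CPM of that in line 13. Adgre1 was at least 1008-fold lower than the mean of the primary libraries, taking the floor of 3 counts in this library, Ctss at least 840.3-fold, Msr1 at least 718-fold, Itgam at least 676-fold and Mrc1 at least 515-fold. Without primary clone 14 in the mean, these bounds were 366, 243, 239.5, 285 and 65.6-fold. Lyz2 was at 0.0573 CPM, Laptm5 at 0.0382 CPM and Mpeg1 at 0.0191 CPM. In the same library Lgmn was at 71.2 CPM, Mertk at 7.77 CPM, Cd14 at 5.06 CPM and Cd68 at 1.43 CPM, which are 43.1%, 52.7%, 28.5% and 3.61% of primary. The median level left was 0.0440% over the 26 genes, or 0.933% with the 11 genes at 0 set to the floor. Without clone 14 these were 0.135% and 2.25%.

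Line 13a, with the clone number of line 13, had the most. It was the highest of the 4 lines for 23 of 25 members, and line 13 the lowest for 20. Lyz2 was at 0.0573, 161, 2.67 and 3.81 CPM in lines 13, 13a, 14 and 15, Laptm5 at 0.0382, 31.2, 0.344 and 1.08 CPM, and Cd68 at 1.43, 30.9, 0.891 and 1.59 CPM. The median level left in line 13a was 44.4% of the primary mean, and 3 of 26 intervals included it. Mrc1, Msr1 and Ptprc were below it, at 26.0%, 22.9% and 26.4%, and Gpnmb was at 525%. Without primary clone 14 the median was 146%, and Mrc1, Msr1 and Ptprc were at 204%, 68.7% and 69.4%.

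The direction in line 13a depended on the primary library used. Against primary clone 13, the culture with its number, it was higher in 20 of 25 members, with 2.40-fold more Lyz2, 5.85-fold more Cd53 and 3.80-fold more Mrc1, and the median log2 ratio over all 37 members was 1.19. Against primary clone 14 it was higher in 1 of 25, Gpnmb, and against clone 15 in 12. Icam1 went from 15.4 CPM in primary clone 13 to 1.70 CPM in line 13a. Across 21197 genes, the deviations of line 13a from its group mean correlated with those of primary clone 14 (r = 0.34) and ran against those of primary clone 13 (r = -0.28), a description over genes that are not independent. Which primary culture line 13a came from cannot be told from the sources used here.

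By the median level left, lines 14 and 15 lay between lines 13 and 13a. Single genes could lie outside. Icam1 was at 4.99 and 3.87 CPM in lines 14 and 15, above 1.70 CPM in line 13a, and Cd68 in line 14 was below its 1.43 CPM in line 13. In line 14 the median level left was 0.794%, and 7 of 26 intervals included it. From primary clone 14 to line 14, Lyz2 went from 1020.1 to 2.67 CPM, Cd68 from 83.8 to 0.891 CPM and Msr1 from 95.9 to 0.0469 CPM. Cd53 was at 4.61 CPM in line 14, 26.9% of the primary mean, far above Ptprc at 0.215% and Laptm5 at 0.589%. In line 15 the median level left was 1.97%, with 5 of 26 intervals including it. Without primary clone 14 in the mean, the medians were 2.51% in line 14 and 7.30% in line 15, with 8 and 8 of 26 intervals including them, and Cd53 in line 14 was at 95.5%. Gpnmb, at 0.706, 295, 3.74 and 116 CPM in lines 13, 13a, 14 and 15, lay above and below its primary levels, and its Log2FC was 0.88 ± 1.64.

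**Figure D5:**
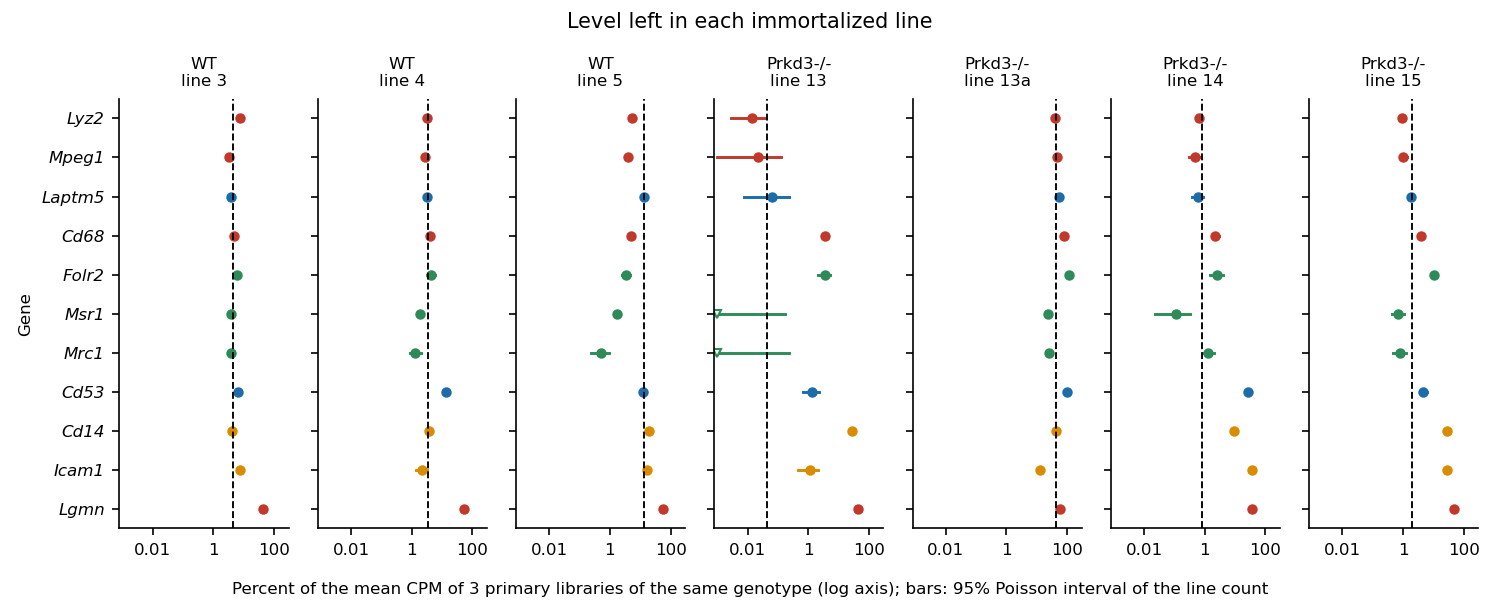
Level left in each immortalized line as a percent of the mean CPM of the 3 primary libraries of its genotype, on a log axis, for 11 members coloured by group, with bars for the 95% Poisson interval of the line's count and a dashed line at the median over 26 members. Lgmn lies above the median in all 7 lines, and Lyz2 below it in 6 of 7. With primary clone 14 left out of the mean, these counts are 6 and 4 lines.

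Some members departed from the line median in the same direction in nearly all lines. Lgmn, Gpnmb and Mertk had intervals above the median in all 7 lines, and Cd53 in 6 of 7. Mpeg1 was below it in 5 lines and Msr1 in 5. Folr2 was above in all 4 Prkd3-/- lines and in WT line 3, but below in WT line 5. Icam1 was above in 5 of 7 lines and below in WT line 4 and line 13a. Without primary clone 14 in the mean, Lgmn and Mertk were above in 6 lines and below in line 13a, Mpeg1 was below in 3 lines, and the counts of Gpnmb, Cd53, Msr1, Folr2 and Icam1 were as given.

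With 0 counts taken as 0%, the resident and scavenger genes had the lowest of the 4 group medians in each of the 7 lines, a description with no test. With 0 counts at the floor, the leukocyte membrane genes were lowest in line 13 (0.586% against 1.02% for resident genes) and in line 14 (0.769% against 0.838%). Without primary clone 14, the resident genes had the highest median in line 13a, 197%, so that their place was the lowest under each of these choices only in WT lines 3, 4 and 5 and in line 15. In line 15 the median level left was 1.97% for leukocyte membrane genes, 2.76% for macrophage and lysosome genes, 0.739% for resident genes and 28.0% for inflammatory genes. In line 14 these were 0.537%, 1.44%, 0.427% and 9.33%, and in line 13a 47.3%, 53.5%, 26.0% and 42.0%. The inflammatory median rests on 3 genes, and in line 15 Cd14 was at 28.0%, Icam1 at 28.1% and Slc11a1 at 2.35%.

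A difference between the genotypes in the response to immortalization was not detected. In a joint edgeR fit of all 13 libraries, 0 of 33 members had an interaction with an adjusted p under 0.05, as had 0% of 21197 genes, and 0 members had an unadjusted p under 0.05, beside 3.97% of all genes. DESeq2 called 0 members, beside 0.104% of all genes. Folr2 had the lowest unadjusted p, 0.12 from edgeR, with a difference in Log2FC of 2.81 ± 1.66 (Prkd3-/- minus WT). Cd68 differed by 2.29 ± 1.62, and Lyz2 by 0.89 ± 2.32, so that differences of a few log2 units lay within these errors. Without line 13a the differences of Folr2, Cd68 and Lyz2 were 0.29, -0.45 and -3.37.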

How the data were processed

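Poly-A RNA-seq of 13 MEF libraries was used. The deposited values are raw counts of read pairs per gene: per the file headers and the study's methods, the authors mapped reads to mm10 with STAR (version 2.7.10a), converted files with SAMtools (version 1.18) and counted with featureCounts of Subread (version 2.0.6) on Ensembl genes of GRCm38, after FastQC (version 0.12.0). In the WT table, strand was ignored and a pair overlapping several genes was counted for each, so overlapping genes share counts. Counting settings of the Prkd3-/- table are not given in the sources used here. The files also hold the length of each gene in bases (union of exons), which was used for FPKM.

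Genes were tested with edgeR (version 4.0.16, R 4.3.3): TMM factors, filterByExpr, and the robust quasi-likelihood test with Benjamini-Hochberg adjustment, for WT (3 against 3), Prkd3-/- (4 against 3), the interaction over 13 libraries and primary cells by genotype. A call was an adjusted p under 0.01 with |Log2FC| ≥ 1, and for the interaction an adjusted p under 0.05. The SE is |Log2FC| divided by the square root of F. CPM were scaled with TMM over the 13 libraries. Log2 ratios used a prior count of 1 and the mean log2 CPM of the primary libraries, and percents their arithmetic mean. DESeq2 (version 1.42.0), other size factors, filters, a joint fit, a clone-number block and left-out libraries were alternatives. Scripts were tested on simulated data. Members, gene lists and tests were chosen with earlier results of these data known. All members were named. Values in every library were given for the 3 members of highest primary FPKM in each group (all 4 for MHC class II), any member with an interaction call (there were 0) and the members with the most and least negative Log2FC in each genotype, and other values were added after they were seen. For Prkd3-/-, nothing but the clone number says that replicates are separate cultures, so p-values measure only the spread between these samples, which may be technical. For WT the study names 3 embryos, but each of the 3 WT primary libraries held both Xist and Y-linked transcripts. Whether each WT library came from 1 embryo alone cannot be told here, so the same limit applies to the WT p-values.

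Primary and immortalized WT libraries are paired by number, which the study ties to the embryo. In Prkd3-/- the clone number alone pairs them. The deviations of same-numbered libraries correlated at -0.03, 0.02 and -0.04 in WT clones 3, 4 and 5, and at 0.14, 0.09 and 0.04 in Prkd3-/- clones 13, 14 and 15 (-0.28 for line 13a with primary clone 13). Depth of 35273408 to 100441756 counts puts the floor of 3 counts at 0.0277 to 0.0842 CPM, and intervals and floors cover counting error only. Gene coordinates (GRCm38) and exon overlaps come from the deposited tables, and promoters from RefSeq, GRCm38.p6, for the member of highest primary FPKM in each group, with none where that member lies on mouse chromosome 18. Mrc1 and Icam1 were added after values were seen. Symbols were matched by Ensembl gene ID for 55141 of 55487 genes.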

Additional observations from a re-analysis of the deposited data

Results flagged for a closer look

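In the 4 Prkd3-/- lines, 19 of 34 members tested had one line far from the other 3, and in each of the 19 it was line 13a that was highest. The limit used flags about 1 in 20 groups of 4 where values are normally distributed, which CPM on an unlogged scale need not be. The share of all genes flagged was not taken, so the count is a description. Its values were 3.84 CPM for Ptprc, 0.809 CPM for Cd52, 31.2 CPM for Laptm5, 8.06 CPM for Cd84, 11.2 CPM for Itgam and 11.5 CPM for Itgb2. For the macrophage and lysosome genes they were 30.9 CPM for Cd68, 16.9 CPM for Adgre1, 161.1 CPM for Lyz2, 39.5 CPM for Mpeg1 and 30.6 CPM for Ctss. For the resident genes they were 7.66 CPM for Mrc1, 12.3 CPM for Folr2, 9.43 CPM for Msr1, 7.72 CPM for Ms4a7, 1.25 CPM for Ms4a6c and 0.274 CPM for Pf4, and for the inflammatory genes 0.137 CPM for Cd86 and 3.93 CPM for Slc11a1. The members are not independent of each other, since 1 library gives all 19 values. Cd53, Gpnmb, Cd14 and the MHC class II genes were not among them.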

How the results depend on the processing

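The count of 10 WT members called lower rose to 22 with DESeq2 and to 17 at an adjusted p under 0.05 with the same fold limit, and fell to 0 in the joint fit of 13 libraries and to 0 with the clone number as replicate block; leaving out 1 library gave 3 to 22 (3, 3 and 4 without primary clones 3, 4 and 5, and 22 without line 5). In Prkd3-/-, 0 called members became 1 with DESeq2 and stayed at 0 in the fit paired by clone number and with line 13a and primary clone 14 left out together, an alternative added after seeing the data. Between primary genotypes, 0 became 2 with DESeq2, 1 without the filter on low counts, and 0 to 14 with 1 library left out. The count of 14 came without clone 14, which was singled out because most members were high in it. The median log2 ratio of line 13a was 1.19 against primary clone 13 in the comparison paired by number and 0.73 without primary clone 14, both of the opposite sign, and -0.84 without primary clone 13. That of line 14 was -5.80 against its own clone in the paired comparison and -6.02 for members of at least 1 CPM, and that of WT line 4 was -4.82 for those members. The spread among members in line 13 was 6.50 log2 units (interquartile range) with a prior count of 0.1. In the WT and Prkd3-/- comparisons, leaving out 1 library at a time turned the sign of 7 single-gene Log2FC, whose values then ranged from -2.25 to 0.077 for Itgal, from -2.22 to 0.036 for Gpnmb and from -0.43 to 0.67 for Cd74 in WT, and from -3.19 to 0.21 for Cd53, from -3.16 to 0.35 for Aif1, from -0.51 to 1.79 for Gpnmb and from -0.35 to 1.70 for F13a1 in Prkd3-/-. The turns came without line 3 or 4 for Itgal (0.074 and 0.077), line 3 for Gpnmb and line 5 for Cd74 in WT, and without primary clone 14 for Cd53 and Aif1 (Aif1 0.12 without line 13a as well), line 13a for Gpnmb and line 14 for F13a1 in Prkd3-/-. It turned 14 of 32 members in the comparison of primary genotypes and 25 of 33 in the interaction, where Cd68 then ranged from -0.45 (without line 13a) to 3.46 and Lyz2 from -3.37 (without line 13a) to 2.72; Lyz2 was -0.79 with the clone number as replicate block. The median percent of primary in line 13a ranged from 32.1 to 146% with 1 primary library left out. The cause was not tested. Of 940 Log2FC of single genes under alternatives, 855 kept direction and side of the threshold, 33 became calls, 40 lost the call and 12 changed sign. The clone-number block changed no other count. The joint fit called 0 of all 21197 genes lower in WT. Where no share of all genes is given for an alternative, its count of called members is a description only. H2-Aa, H2-Ab1, Lyve1, Cd163 and Vsig4 rest on few counts, and a fall could be missed at this depth. H2-Ab1 was lower in each WT line (0, 0.0169 and 0 CPM) than in any WT primary library (0.0613 to 0.143 CPM).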
